A study of Amphimedon queenslandica with 144 samples.

Results

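Larvae of the demosponge Amphimedon queenslandica that swam for 2 h beside Mesophyllum sp., a crustose coralline alga, were compared with larvae that swam for the same time in filtered seawater alone. The comparison took every larva labelled as swimming with Mesophyllum sp., 36 animals, and every seawater larva of the same 4 ages, also 36 animals, so that 72 of the 144 sequenced animals were compared. The cue was given at an age of 1.5, 3, 5 or 8 h, counted from when the larva left its mother, and animals were collected 2 h later at 3.5, 5, 7 or 10 h of age, with 9 larvae for each cue and age. Each larva was kept in its own well, with its own piece of alga or with none, and all 72 were still swimming when collected. Each was sequenced as a single whole animal by CEL-Seq2, which tags the 3′ end of polyadenylated RNA with a barcode for the animal. The other 72 animals were 9 larvae collected at 0.5 h without a cue, 36 larvae swimming near the articulated coralline alga Amphiroa fragilissima, and 27 settled post-larvae from both algae. They entered the statistical fit and are used below only where named.

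Sponge larvae lack neurons and muscles and swim with a coat of ciliated cells. After a period in the plankton they become competent to settle, attach to a surface and metamorphose into a feeding juvenile, and coralline algae with their surface bacteria are a common settlement cue for larvae of reef invertebrates. Comparing larvae that were exposed and still swam with larvae in seawater addresses transcript levels before attachment. The gene models carry identifiers but no names in the files, and none of the identifiers was found in the reference gene table of the species, so no function can be given for any gene below. A change in whole-animal RNA cannot tell a change in the level per cell from a change in the number of cells of a type.

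Exposure to Mesophyllum sp. was followed by few detectable differences. Of 14950 genes tested, 32 passed the threshold in the comparison averaged over the 4 ages, which is 0.214% of the genes tested, and 1323 had an unadjusted p below 0.05. Of these 32 genes, 26 were higher with Mesophyllum sp. (0.174% of the genes tested) and 6 were lower (0.0401%). A gene was said to have risen or fallen when its p from the quasi-likelihood F test of edgeR, adjusted by the method of Benjamini and Hochberg over all genes tested, was below 0.05. The median log2 fold change was 0.86 for the 26 higher genes and -2.15 for the 6 lower ones, against -0.01 over all genes tested. Changes differed in size, with 11 of the 32 genes under 1.5-fold and 16 at 2-fold or more.

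Libraries had been made in 3 sets labelled T, K and C with 48 animals each, and the cues were spread unevenly over them. Mesophyllum larvae were in T (13), K (8) and C (15), whereas seawater larvae were in T (16), K (19) and C (1). The 8 Mesophyllum larvae of library K had all been induced at 1.5 or 3 h. Library entered the fit as a term, which takes the cue difference as equal in all 3. The calls nevertheless leaned on library K. Without its animals edgeR passed 0 genes, with 1079 at an unadjusted p below 0.05, and limma-trend passed 1, Aqu2.1.13166_001, which fell by 0.83 on the log2 scale (limma-trend adjusted p = 0.022) and was not among the 32. Leaving out library K also removed 19 seawater larvae, leaving 16 in T and 1 in C. The count of 0 therefore cannot tell a smaller difference from lower precision. Of the 32 genes, 16 had at least 80% of their log2 fold change without library K. Another 9 had 50 to 80% and 6 had under 50%, and Aqu2.1.30480_001 was not tested there. Within library T alone a separate edgeR fit passed 3 genes, and within library K at 1.5 and 3 h it passed 67. Each gene below is therefore given with its value in single libraries where that bears on it.

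**Figure D1:**
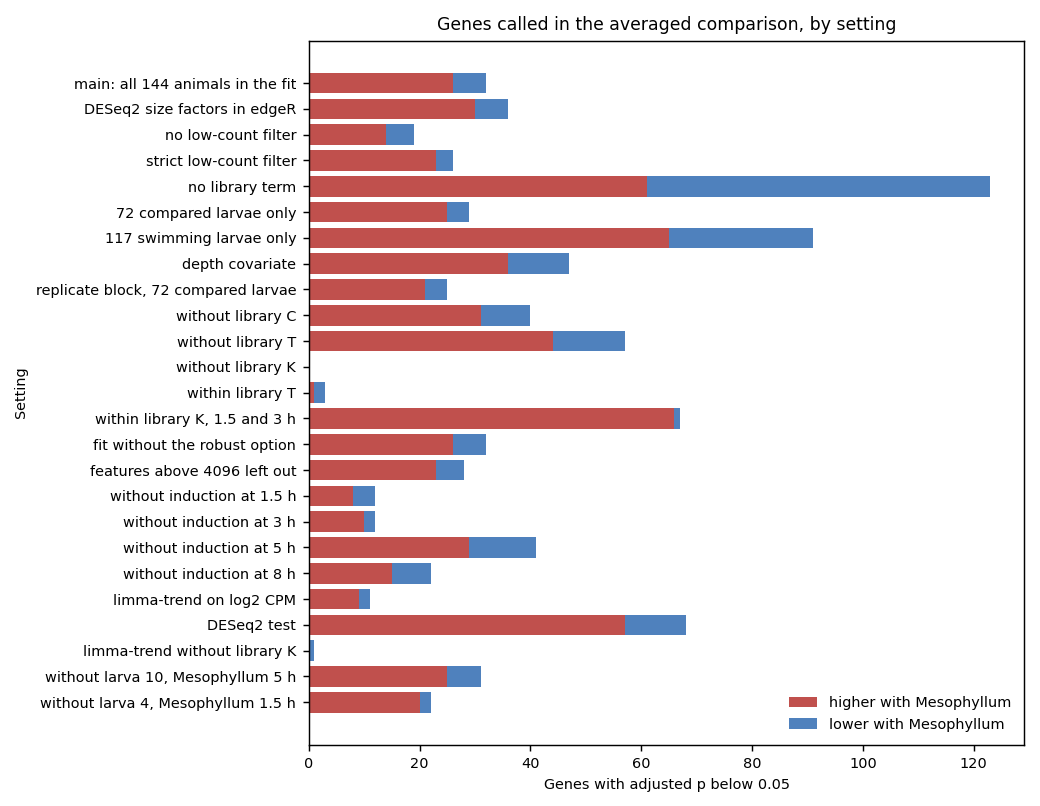
Bars are the number of genes past an adjusted p of 0.05 in the averaged comparison under each setting, red for higher and blue for lower with Mesophyllum sp. The count is 32 with all animals, 0 without library K and 67 within library K at 1.5 and 3 h.

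Total counts per larva ran from 541737 to 4692279 in the 72 compared larvae. With Mesophyllum sp. the mean totals from the youngest to the oldest larvae were 1896851 ± 643075, 2055545 ± 377991, 2161304 ± 206224 and 1802743 ± 563161 counts (SD, n = 9 each). In seawater they were 2344984 ± 459223, 2105717 ± 557311, 2088983 ± 348719 and 2431565 ± 894093 in the same order. The difference passed no two-sided exact permutation test of means at any age, with the smallest adjusted p at 0.212 over the 4 ages. Levels below are counts scaled to a common library total (CPM, with the totals adjusted by trimmed means) and are not corrected for library.

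The called genes were described in 2 classes. Those detected in at least 33 of the 36 larvae of each cue are called evenly detected and numbered 23, of which 20 rose and 3 fell. The remaining 9 were counted in some larvae and absent from others, and of these 6 rose and 3 fell.

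Aqu2.1.31554_001, which shared the smallest adjusted p with Aqu2.1.36014_001, had a small rise. With Mesophyllum sp. its level ran from 71.4 through a median of 125 to 221 CPM, and in seawater from 73.4 through 106 to 170 CPM. The mean was higher with the alga at each age, at 163 ± 28.9 against 123 ± 23.3 CPM at 1.5 h, 136 ± 22.3 against 120 ± 16.2 at 3 h, 109 ± 17.7 against 99.0 ± 10.5 at 5 h and 99.8 ± 16 against 84.2 ± 6.4 at 8 h (SD, n = 9). The ranges of the cues overlapped at all ages, and 26 of 36 Mesophyllum larvae lay above the seawater median. The averaged log2 fold change was 0.34 ± 0.06 (SE, edgeR adjusted p = 0.000171). All 5 Mesophyllum larvae above the highest seawater larva came from library K, and the difference was 0.43 ± 0.11 in that library at 1.5 and 3 h and 0.26 ± 0.08 in library T over the 4 ages.

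Aqu2.1.36014_001 had the most Mesophyllum larvae above the seawater median of the 32 genes. Its levels were 10.1, 17.9 and 53.9 CPM (lowest, median and highest) with the alga and 5.93, 11.8 and 22.6 CPM in seawater. Of the 36 Mesophyllum larvae, 33 lay above the seawater median and 11 above every seawater larva. The averaged log2 fold change was 0.77 ± 0.13 (SE, edgeR adjusted p = 0.000171). Means by age were 28.0 ± 13.1 against 13.5 ± 5.14 CPM at 1.5 h, 24.5 ± 9.81 against 11.6 ± 4.34 at 3 h, 15.2 ± 4.19 against 13.6 ± 4.69 at 5 h and 18.1 ± 4.05 against 11.9 ± 3.55 at 8 h (SD, n = 9). In library K at 1.5 and 3 h the groups did not overlap, with 24.3 to 53.9 CPM in 8 Mesophyllum larvae and 6.72 to 20.2 CPM in 9 seawater larvae. In library T at the same ages they did, with 13.4 to 23.9 CPM in 6 larvae and 5.98 to 19.6 CPM in 9. Without library K the log2 fold change was 0.35 (edgeR adjusted p = 0.601), which is 45.9% of its size with all libraries.

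**Figure D2:**
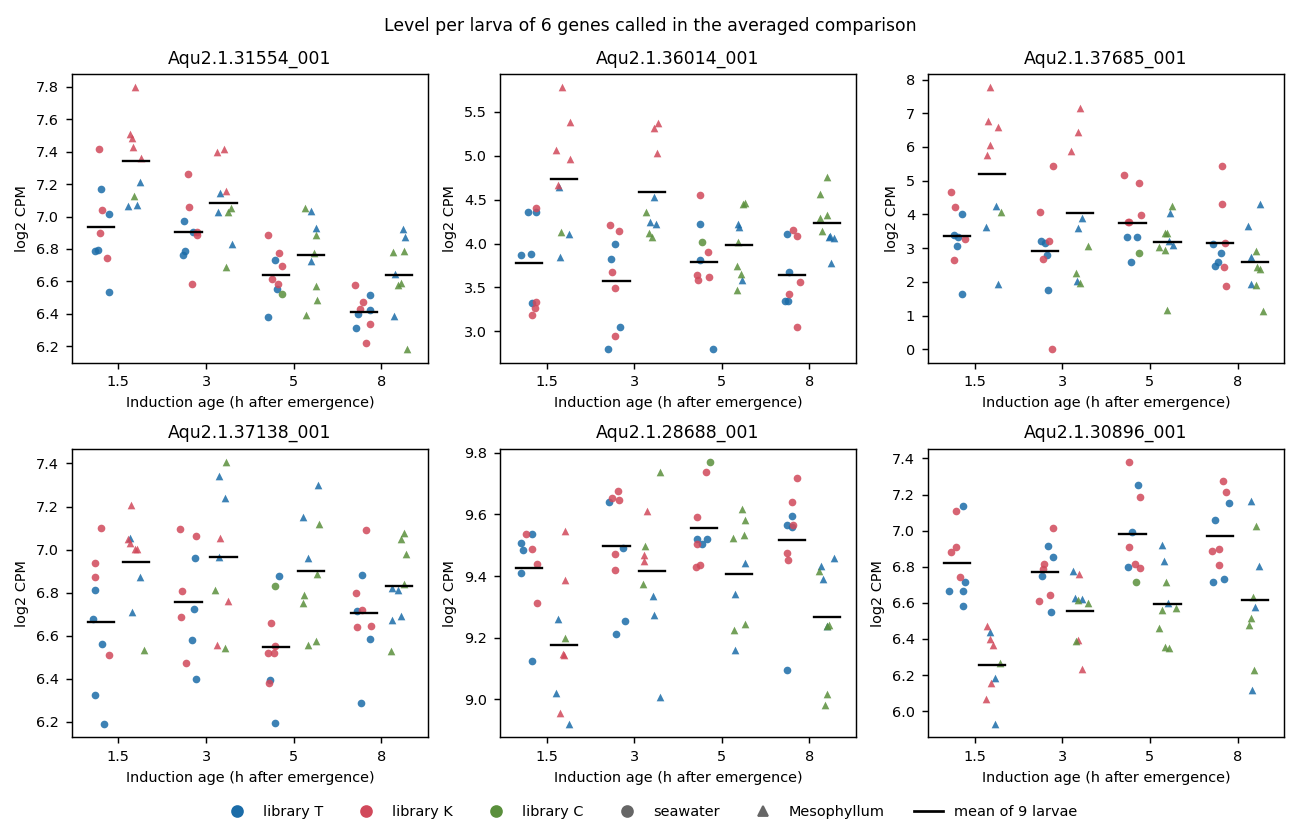
Each point is a larva, with seawater as circles and Mesophyllum sp. as triangles, coloured by library, and the vertical axis is log2 CPM against induction age in hours. In Aqu2.1.37685_001 the red triangles of library K stand above the other larvae. In Aqu2.1.36014_001 they stand above all seawater larvae but overlap the Mesophyllum larvae of library C, which reach 26.1 CPM. In Aqu2.1.28688_001 and Aqu2.1.30896_001 the fitted differences are below 0 in both T and K. In Aqu2.1.37138_001 the fitted log2 fold change is 0.40 in library T and 0.08 in library K at 1.5 and 3 h.

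Aqu2.1.00064_001 varied most between larvae among the 5 evenly detected genes with the smallest adjusted p. With Mesophyllum sp. it ran from 0.903 through a median of 11.5 to 934 CPM, and in seawater from 2.76 through 8.05 to 45.1 CPM. The ranges overlapped, and 24 of 36 Mesophyllum larvae lay above the seawater median. The highest value came from larva 4 of the 1.5 h group in library T, which also had the fewest counts of all, 541737, and the other 8 larvae of its group ran from 0.903 to 101 CPM. The averaged log2 fold change was 1.77 ± 0.31 (SE, edgeR adjusted p = 0.000476), and without that larva it was 1.19 ± 0.26 (edgeR adjusted p = 0.0127). Library C held this gene lower than T and K, by 1.61 on the log2 scale (edgeR adjusted p = 0.000477, in a comparison that passed 14.5% of the genes tested).

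Another pair of these genes, Aqu2.1.34424_001 and Aqu2.1.35671_001, had their highest levels in larvae of library K induced at 1.5 h. Aqu2.1.34424_001 had a median of 3.18 CPM (0 to 35.4) in Mesophyllum larvae and of 1.75 CPM (0 to 4.78) in seawater larvae, and it rose by 1.78 ± 0.33 on the log2 scale (SE, edgeR adjusted p = 0.000873). In library K at 1.5 and 3 h the 8 Mesophyllum larvae held 7.98 to 35.4 CPM and the 9 seawater larvae 0 to 4.4 CPM, with no overlap. Aqu2.1.35671_001 rose by 0.91 ± 0.17 (SE, edgeR adjusted p = 0.00194), although its uncorrected median was 103 CPM (51.3 to 910) in Mesophyllum larvae and 108 CPM (35.1 to 384) in seawater larvae. In library K at 1.5 and 3 h its means were 600 ± 215 CPM in 8 Mesophyllum larvae and 198 ± 115 CPM in 9 seawater larvae (SD), and in library C, which held 15 Mesophyllum larvae and 1 seawater larva, its level was lower by 1.05 on the log2 scale (edgeR adjusted p = 1.6e-05). In library T its log2 fold change was -0.07 ± 0.32 at 1.5 and 3 h and 0.26 ± 0.23 over the 4 ages (SE), and without library K it was 0.33 (edgeR adjusted p = 0.846), 36.3% of its size with all libraries. At 5 h its uncorrected mean was lower with the alga, at 77.8 ± 20.1 against 127 ± 52.0 CPM (SD, n = 9).

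Among the other 15 evenly detected genes that rose, log2 fold changes ran from 0.28 in Aqu2.1.37138_001 to 1.85 in Aqu2.1.25609_001. Aqu2.1.37685_001 had its high levels in library K. Its 8 Mesophyllum larvae of library K held 52.8 to 216 CPM, above the highest seawater larva of any library at 42.7 CPM, whereas means in library T at 1.5 and 3 h were 10.0 ± 6.01 CPM in 6 Mesophyllum larvae and 7.54 ± 3.91 CPM in 9 seawater larvae (SD). In Aqu2.1.16774_001 a pair of Mesophyllum larvae at 181 and 175 CPM, both in library K, held 71.4% of the CPM summed over the 36 larvae, the third highest held 10.1 CPM, and the medians were 4.15 and 4.12 CPM. Its log2 fold change was 1.27 with all libraries and 0.04 without library K, and leaving out either of these larvae, number 9 at 1.5 h or number 6 at 3 h, also ended the call, with values down to 0.80.

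Other genes differed by as much when library K was left out. Of the 20 evenly detected genes that rose, 8 had at least 80% of their log2 fold change without library K, 6 had 50 to 80% and 6 had under 50%. The 8 included Aqu2.1.37138_001, at 120.8 ± 20.6 CPM beside the alga against 102 ± 17.8 CPM without it (SD, n = 36), with 30 of 36 Mesophyllum larvae above the seawater median. Its log2 fold change was 0.28 ± 0.07 with all libraries, 0.32 without library K and 0.40 ± 0.10 in library T (SE; edgeR adjusted p = 0.0491, 0.321 and 0.137). In library K at 1.5 and 3 h it was 0.08 ± 0.13 (SE, edgeR adjusted p = 0.954), and without library T it was 0.14. Aqu2.1.40377_001 had 52.9 ± 12.3 against 41.8 ± 9.93 CPM (SD, n = 36), with log2 fold changes of 0.32, 0.40 and 0.40 in the same order, and 0.17 ± 0.15 in library K at 1.5 and 3 h (SE). Aqu2.1.24626_001 had medians of 6.07 CPM (0.801 to 23.3) with the alga and 2.40 CPM (0.504 to 10.9) without it, with log2 fold changes of 1.15, 1.11 and 1.27, and 0.91 ± 0.52 in library K at 1.5 and 3 h (SE). Aqu2.1.25609_001 was high in 5 h larvae, at 65.3 ± 76.3 CPM on average against 7.11 ± 7 CPM in seawater larvae (SD, n = 9), and its log2 fold change was 1.85 with all libraries, 2.73 in library T and -0.17 in library K at 1.5 and 3 h. None of these 4 genes passed the threshold without library K, where edgeR adjusted p over the 20 ran from 0.111 to 1.

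**Figure D3:**
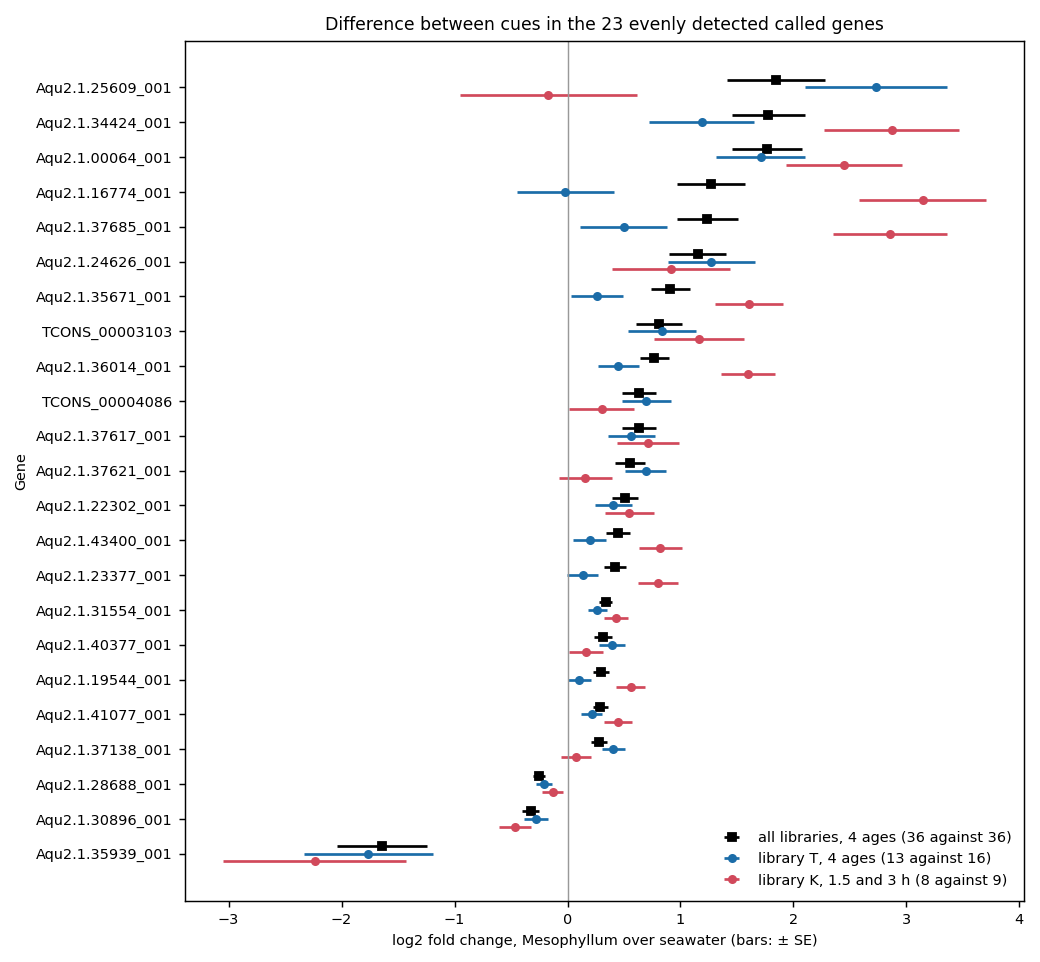
Points are log2 fold changes of Mesophyllum sp. over seawater with their standard errors for the 23 evenly detected genes, from all libraries (black), library T over 4 ages (blue) and library K at 1.5 and 3 h (red). The red points lie beyond the blue ones in genes such as Aqu2.1.16774_001 (3.14 against -0.02) and on the other side of them in Aqu2.1.25609_001 (-0.17 against 2.73).

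The 3 evenly detected genes that fell had fitted differences below 0 in both library T and library K. None of them passed the threshold within T over 4 ages or within K at 1.5 and 3 h (edgeR adjusted p from 0.184 to 0.788). Because larvae of both libraries helped to choose these genes, the shared sign is no separate evidence. Aqu2.1.28688_001, an abundant transcript, had 483, 647 and 854 CPM with the alga (lowest, median, highest) and 546, 726 and 872 CPM in seawater. Of 36 Mesophyllum larvae, 29 lay below the seawater median and 6 below every seawater larva, and it fell by 0.25 ± 0.05 on the log2 scale (SE, edgeR adjusted p = 0.0138). Means were lower with the alga at each age, at 582 ± 84.8 against 689 ± 60.2 CPM at 1.5 h, 689 ± 97.2 against 726 ± 85.6 at 3 h, 682 ± 79.2 against 755 ± 66.0 at 5 h and 620 ± 72.9 against 737 ± 83.1 at 8 h (SD, n = 9). Its log2 fold change was -0.21 ± 0.07 in library T over 4 ages and -0.13 ± 0.09 in library K at 1.5 and 3 h (SE).

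Aqu2.1.30896_001 had the most Mesophyllum larvae beyond the seawater range of the 32 genes. Its levels were 59.9, 89.5 and 143 CPM with the alga (lowest, median, highest) and 92.5, 113 and 166 CPM in seawater, and 19 of 36 Mesophyllum larvae lay below every seawater larva. It fell by 0.33 ± 0.07 on the log2 scale (SE, edgeR adjusted p = 0.0173). At 1.5 h the means were 75.8 ± 9.54 against 113 ± 16.3 CPM, and at 8 h they were 99.6 ± 24.3 against 126 ± 18.7 CPM (SD, n = 9). In library K at 1.5 and 3 h 8 Mesophyllum larvae had 66.0 to 107 CPM and 9 seawater larvae 96.7 to 137 CPM, and in library T at those ages 6 had 59.9 to 109 CPM and 9 had 92.5 to 140 CPM. The log2 fold change was -0.26 without library K (edgeR adjusted p = 0.559).

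Aqu2.1.35939_001 is a gene whose level climbs with larval age, and it was lower with the alga. In seawater its means from the youngest to the oldest were 7.34 ± 8.78, 26.3 ± 32, 103 ± 87.6 and 78.2 ± 62.7 CPM, and with Mesophyllum sp. they were 5.98 ± 9.18, 3.38 ± 3.40, 15.8 ± 12.3 and 39.7 ± 31.9 CPM (SD, n = 9). Over all ages the alga group ran from 0 through a median of 5.65 to 96.6 CPM and the seawater group from 1.16 through 27.2 to 237 CPM, so that the groups overlapped. It fell by 1.64 ± 0.40 on the log2 scale (SE, edgeR adjusted p = 0.0416), with -1.76 ± 0.57 in library T, -2.24 ± 0.81 in library K at 1.5 and 3 h and -1.81 without library K. From 3.5 to 10 h of age it rose by 3.52 in seawater and by 2.88 near A. fragilissima on the log2 scale (edgeR adjusted p = 0.000402 and 0.0038, in comparisons that passed 7.93% and 15.9% of the genes tested).

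The 9 unevenly detected genes were absent from many larvae of both cues. Aqu2.1.08801_001 was counted in 19 of 36 Mesophyllum larvae and in 5 of 36 seawater larvae, with highest levels of 14.8 and 3.37 CPM and medians of 0.393 and 0 CPM. Of the Mesophyllum larvae, 13 lay above every seawater larva, 5 of these in library K, and larvae with a count occurred at every age, 5, 6, 4 and 4 of 9 from the youngest to the oldest. Its log2 fold change was 3.17 ± 0.64 (SE, edgeR adjusted p = 0.0064), 3.81 without library K and 3.03 ± 1.22 in library T. Near A. fragilissima its averaged log2 fold change over seawater was 0.33 (edgeR adjusted p = 0.858), and the difference between the algae was 2.84 ± 0.63 (SE, edgeR adjusted p = 0.00741). That difference uses the same Mesophyllum larvae by which the gene was chosen.

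Large fold changes in the other unevenly detected genes came from few larvae. Aqu2.1.00322_001, which fell by 4.12 ± 1.01 on the log2 scale (SE, edgeR adjusted p = 0.0416), was counted in 13 Mesophyllum larvae and 14 seawater larvae, with a median of 0 CPM in both groups. Its highest levels were 69.6 and 132 CPM, and 2 of the 36 Mesophyllum larvae held 93.5% of the CPM summed over the group. Its log2 fold change was -0.83 without library T (edgeR adjusted p = 0.938) and -2.63 without larva 1 of the seawater 1.5 h group (edgeR adjusted p = 0.434). Aqu2.1.07737_001 was counted in 13 and 6 larvae, with highest levels of 20.7 and 1.51 CPM, and had a log2 fold change of 3.72 ± 0.80 (SE, edgeR adjusted p = 0.0152). Aqu2.1.30516_001 was counted in 17 and 18 larvae with a log2 fold change of 3.46 ± 0.75 (SE, edgeR adjusted p = 0.0157), and a pair of Mesophyllum larvae at 367 and 338 CPM held 66.4% of the group's sum while the third held 50.8 CPM. Both larvae were in library K, and without that library the log2 fold change was 2.23 (edgeR adjusted p = 0.608). Aqu2.1.08606_001 was counted in 10 and 8 larvae, the single highest level of 22 CPM was in seawater, and the log2 fold change was 3.41 ± 0.79 (SE, edgeR adjusted p = 0.0344) with all libraries and 1.41 without library T. limma-trend, which works on log2 CPM, passed 0 of these 9 genes and 9 of the 23 evenly detected ones. Leaving out 1 larva at a time, adjusted p went to 0.05 or above at least once in 23 of the 32 genes. The 9 that stayed below it in all 72 fits were Aqu2.1.31554_001, Aqu2.1.36014_001, Aqu2.1.00064_001, Aqu2.1.34424_001, Aqu2.1.35671_001, Aqu2.1.37685_001, Aqu2.1.08801_001, Aqu2.1.28688_001 and Aqu2.1.30896_001.

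Single ages gave fewer calls, and at 5 and 8 h the cues were poorly matched by library. In T, K and C, Mesophyllum larvae numbered 3, 0 and 6 at 5 h and 4, 0 and 5 at 8 h. Seawater larvae numbered 3, 5 and 1 at 5 h and 4, 5 and 0 at 8 h. At 8 h the cues thus met only in library T, and at 5 h only in T and C. With 9 larvae against 9, edgeR passed 1 gene in the 1.5 h larvae (0.00669%), 3 genes in the 5 h larvae (0.0201%) and 0 in both the 3 h and the 8 h larvae, and from the youngest to the oldest the counts at an unadjusted p below 0.05 were 847, 853, 822 and 909. The test of whether the cue difference depended on age passed 0 genes in edgeR (779 at an unadjusted p below 0.05) and 1 in DESeq2. The difference at 5 and 8 h minus that at 1.5 and 3 h passed 0 in edgeR (535 at an unadjusted p below 0.05) and 7 in DESeq2. The gene called at 1.5 h was Aqu2.1.00064_001, which averaged 142 ± 299 CPM beside the alga against 7.26 ± 1.92 CPM without it (SD, n = 9) and had a log2 fold change of 4.4 ± 0.6 (SE, edgeR adjusted p = 4.5e-07). Without larva 4, at 934 CPM, edgeR passed 0 genes at 1.5 h and 22 in the averaged comparison.

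At 5 h the called genes were Aqu2.1.33566_001, Aqu2.1.40907_001 and Aqu2.1.09966_001. A single larva, number 10 of the Mesophyllum group in library C, stood apart in the first and the last of them. It held 2022 CPM of Aqu2.1.33566_001 where the other 8 larvae of its group held 58.1 to 116.97 CPM, and 124 CPM of Aqu2.1.09966_001 where the others held 0 to 0.526 CPM. Animals already settled on Mesophyllum sp. held 119 to 4641 CPM of the first and 2.02 to 1081 CPM of the second, so this larva, labelled as swimming, lay within the range of settled animals for both. Other swimming larvae also reached the lower part of these ranges. Mesophyllum larvae at 3 h held up to 194 CPM of the first and 3.81 CPM of the second, and seawater larvae up to 160 CPM of the first. Lying within the range thus does not by itself mark an animal as settled. Settling on A. fragilissima, a comparison with no animals in common but with library terms from the same fit, went with a rise of 4.14 and 8.90 on the log2 scale in these genes (edgeR adjusted p = 1.49e-19 and 4.02e-10). Without larva 10 the 5 h comparison passed 0 genes in edgeR, with 781 at an unadjusted p below 0.05. Aqu2.1.40907_001 did not rest on that larva's level, which was 71.98 CPM. With the alga its 9 larvae at 5 h averaged 91.9 ± 31.9 CPM against 45.1 ± 22.1 CPM in seawater (SD), the log2 fold change was 1.09 ± 0.23 (SE, edgeR adjusted p = 0.0427), and without larva 10 it was 1.13 (edgeR adjusted p = 0.0675).

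Each animal was given a settlement score. It was the average log2 CPM over 1988 genes raised by settling on A. fragilissima less that over 1770 genes lowered by it. These genes were chosen by comparing Amphiroa animals, but with library terms estimated from all animals, the compared larvae among them. All 13 animals settled on A. fragilissima were in library C, so that settling and library were largely confounded in choosing the genes. Library C also held 15 of the swimming Mesophyllum larvae, larva 10 at 5 h among them, and 1 seawater larva. Animals settled on Mesophyllum sp. scored 1.63 ± 1.09 (SD, n = 14), from 0.207 through a median of 1.35 to 3.28. Their lowest scores thus lay within the range of swimming larvae. Swimming Mesophyllum larvae scored from 0.0237 through a median of 0.209 to 0.634, and seawater larvae from 0.0385 through 0.172 to 0.393. The highest score among the 72 belonged to larva 10 at 5 h. The ranges of the cues overlapped, and group means were 0.224 ± 0.124 and 0.173 ± 0.0756 (SD, n = 36). With library adjusted for, the means were 0.235 ± 0.124 and 0.122 ± 0.0677 (SD, n = 36).

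To see how far the leaning on library K reached, the cue difference was taken within each library at 1.5 and 3 h from a fit of all animals with a mean for each group in each library, added after the results were seen. This fit shares its estimate of the spread over all animals, unlike the separate fits above. Within library K, 8 Mesophyllum larvae against 9 seawater larvae gave 47 genes past the threshold (0.314% of the genes tested), all higher with the alga. Within library T, 6 larvae against 9 gave 8 genes (0.0535%), 3 higher and 5 lower. The difference between the libraries itself passed in 35 genes (0.234%), of which 33 had the larger value in K. Of the 47 genes, 10 were among the 32 of the averaged comparison, and in library T the fitted difference was above 0 for 15 of the 47, or 31.9%, against 45.01% of all genes tested. For none of the 32 genes did the difference between K and T pass. This cannot show that K and T are alike in them. The 32 were chosen from the same larvae by a fit that takes the cue difference as equal in all libraries. Just outside the threshold lay Aqu2.1.35671_001 at 1.68 ± 0.45 and Aqu2.1.16774_001 at 3.05 ± 0.84 (K minus T, log2, SE, edgeR adjusted p = 0.0638 and 0.071).

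The genes called within library K included abundant transcripts that resembled each other in their levels for each cue and library. Aqu2.1.34199_001 averaged 1640 CPM (754 to 2792) in the 8 Mesophyllum larvae of library K, 838 CPM (593 to 1478) in the 8 Amphiroa larvae and 405 CPM (93.2 to 888) in the 9 seawater larvae. In library T it averaged 233, 249 and 282 CPM in the same order of cues. Its log2 fold change over seawater was 2.01 ± 0.33 in K and -0.24 ± 0.35 in T, and the difference was 2.25 ± 0.49 (SE, edgeR adjusted p = 0.0155). Aqu2.1.00982_001 averaged 1488 CPM with Mesophyllum sp., 855 with A. fragilissima and 369 in seawater in library K, and 235, 226 and 233 CPM in library T. Aqu2.1.00030_001, Aqu2.1.00441_001 and Aqu2.1.09853_001 lay at 1496, 1294 and 1271 CPM in Mesophyllum larvae of K and at 249, 273 and 191 CPM in those of T. The difference between K and T did not pass in Aqu2.1.00982_001 or in these genes (edgeR adjusted p = 0.0724, 0.0676, 0.154 and 0.071 in the order named). It passed in 12 of the 47 genes called within library K. Sample titles hold a running number from 1 to 48 within each library, which the labels do not explain. In library K seawater larvae hold the numbers 6 to 24, Amphiroa larvae 25 to 40 and Mesophyllum larvae 41 to 48, and in library T the cues follow in the same order from 5 to 20, 21 to 33 and 34 to 46. Within these libraries cue and running number cannot be told apart.

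**Figure D4:**
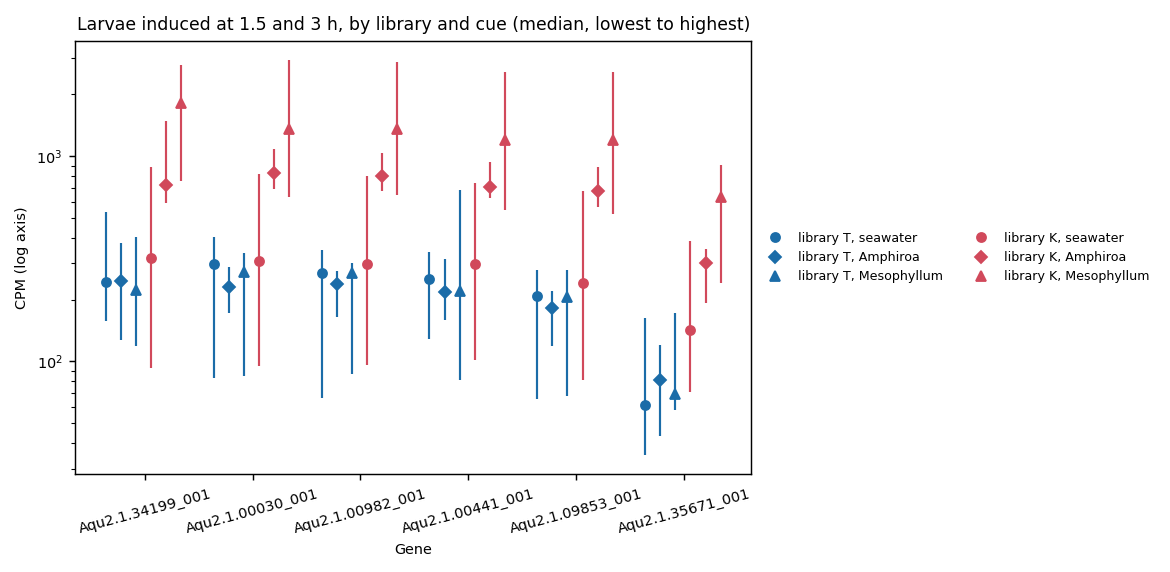
Symbols are the median CPM, on a log axis, and lines the lowest to highest larva in those induced at 1.5 and 3 h, for 6 genes called within library K. In library K (red) seawater, Amphiroa and Mesophyllum larvae form a climbing order, for example 405, 838 and 1640 CPM on average in Aqu2.1.34199_001, with ranges that overlap between neighbouring cues. In library T (blue) the averages of that gene are 282, 249 and 233 CPM.

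Values near A. fragilissima are set beside those with Mesophyllum sp., with the seawater larvae shared by both comparisons. The averaged comparison of A. fragilissima with seawater passed 822 genes, 5.5% of those tested, against 0.214% for Mesophyllum sp. Swimming Amphiroa larvae were in T (13), K (16) and C (7), so they shared libraries with seawater larvae more than Mesophyllum larvae did. Precision may therefore differ between the comparisons, and these counts do not measure the size of the responses. The log2 fold changes over seawater with Mesophyllum sp. and with A. fragilissima were 0.34 and 0.29 in Aqu2.1.31554_001, 0.77 and 0.51 in Aqu2.1.36014_001, 1.77 and 1.76 in Aqu2.1.00064_001, 1.78 and 1.68 in Aqu2.1.34424_001, and 0.91 and 0.45 in Aqu2.1.35671_001. In the genes that fell they were -0.25 and -0.43 in Aqu2.1.28688_001, -0.33 and -0.27 in Aqu2.1.30896_001, and -1.64 and -2.18 in Aqu2.1.35939_001.

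The algae themselves were compared directly in the same fit. Between them 122 genes differed, 0.816% of those tested, and among the 32 genes 4 did. The 32 genes had been chosen by the same 36 Mesophyllum larvae, which raises this share and their differences from Amphiroa larvae. The 4 are therefore no independent evidence of a difference between the algae. With Mesophyllum sp. Aqu2.1.37621_001 was higher by 0.46, Aqu2.1.08801_001 by 2.84 and Aqu2.1.08349_001 by 3.02, and Aqu2.1.27092_001 was lower, at -2.45 (log2, edgeR adjusted p = 0.0426, 0.00741, 0.0103 and 0.0304). Aqu2.1.37621_001 is the only evenly detected one of the 4, and its averaged level was 31.3 ± 14 CPM with Mesophyllum sp. and 25.2 ± 10.2 CPM in seawater (SD, n = 36).

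**Figure D5:**
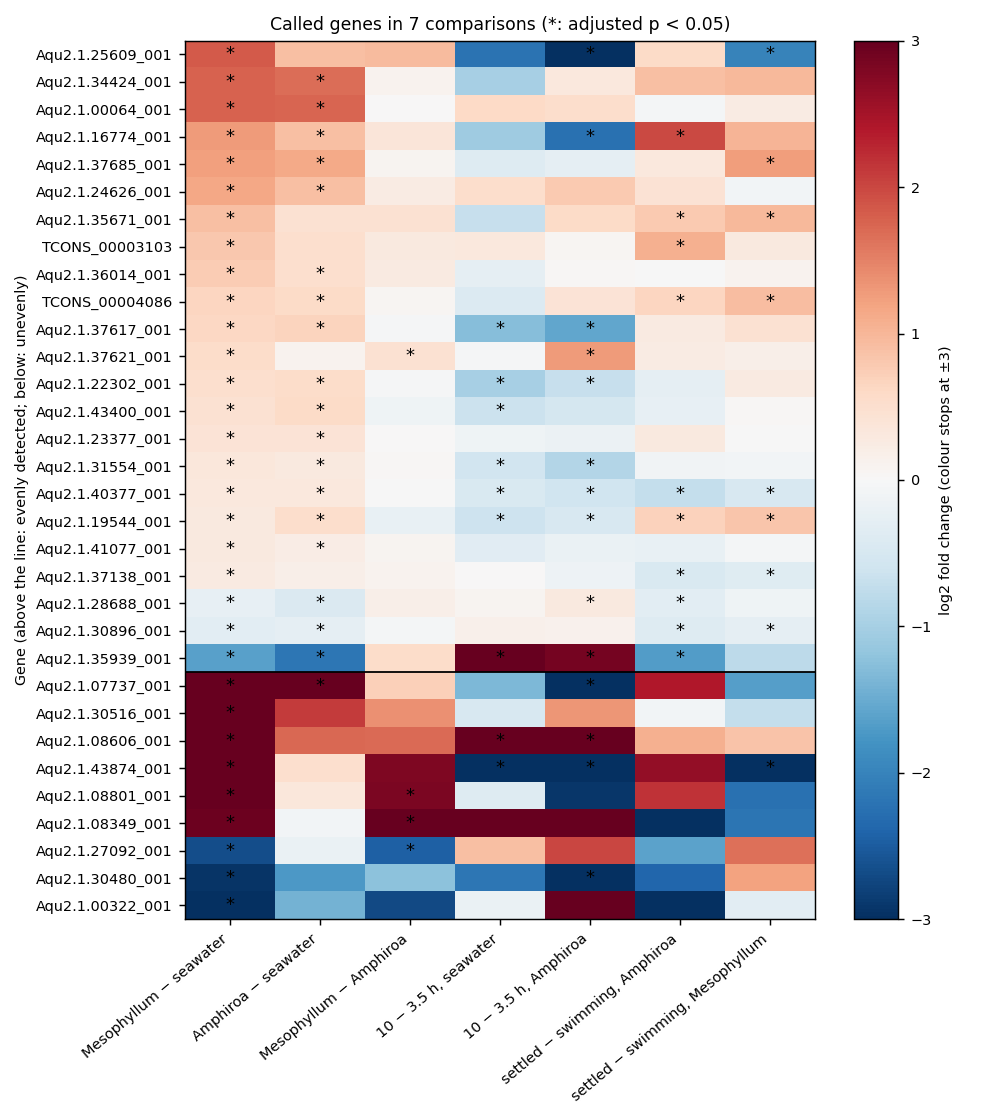
Colours are log2 fold changes, stopping at 3 in either direction, of the 32 called genes in 7 comparisons, and asterisks mark an edgeR adjusted p below 0.05. The comparisons with seawater share seawater larvae and those with Mesophyllum sp. share its larvae, whereas the columns for ageing and settling with Amphiroa share no animals with the first column. All columns come from the same fit and share its library terms.

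Settling and ageing near A. fragilissima share no animals with the comparison, and the called genes were looked up there. They do share its library terms, which were estimated from all animals, the compared larvae among them. All 13 animals settled on A. fragilissima were in library C. Of the swimming Amphiroa larvae of the same ages, 0 at 5 h and 3 at 8 h were in C. Settling is thus largely confounded with library C. Settling changed 3758 genes, 25.1% of those tested, with 13.3% up and 11.8% down. Of the 26 genes higher with Mesophyllum sp., 5 rose on settling, 2 fell and 19 passed in neither direction. Aqu2.1.16774_001 rose by 1.98, TCONS_00003103, a feature outside the gene models, by 1.06, and Aqu2.1.19544_001 by 0.70, whereas Aqu2.1.40377_001 fell by 0.71 and Aqu2.1.37138_001 by 0.45 on the log2 scale (edgeR adjusted p = 0.00173, 0.0145, 3.98e-07, 7.26e-06 and 0.00159). Of the 6 genes lower with Mesophyllum sp., the 3 evenly detected ones fell on settling and the 3 unevenly detected ones did not pass. Those that passed fell by 0.33 in Aqu2.1.28688_001, 0.38 in Aqu2.1.30896_001 and 1.68 in Aqu2.1.35939_001 (log2, edgeR adjusted p = 0.00211, 0.00963 and 0.0485).

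Age from 3.5 to 10 h near A. fragilissima changed 2376 genes, 15.9% of those tested, with 8.92% up and 6.98% down. Of the 26 genes higher with Mesophyllum sp., 9 fell with age and 2 rose. Aqu2.1.31554_001 fell by 0.89 with age, Aqu2.1.37617_001 by 1.55, Aqu2.1.22302_001 by 0.68 and Aqu2.1.40377_001 by 0.60, and Aqu2.1.37621_001 rose by 1.27 (log2, edgeR adjusted p = 3e-11, 1.41e-05, 0.0203, 0.000999 and 3.29e-05). Of the 6 genes lower with Mesophyllum sp., Aqu2.1.28688_001 rose by 0.28 and Aqu2.1.35939_001 by 2.88 with age, and Aqu2.1.30480_001 fell.

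The precision of the averaged comparison limits what could have been missed. For 11331 of the 14950 genes, 75.8%, the 95% interval of the log2 fold change lay wholly between -1 and 1, a halving and a doubling. This share was 92.3% of the 8387 genes with a mean of at least 10 CPM, 56.7% of the 6275 genes at 1 to 10 CPM and 10.1% of the 288 genes under 1 CPM. The intervals belong to the average over ages, from the fit that takes the cue difference as equal in all libraries. They do not bound the difference within a single library or at a single age. Just outside the threshold lay Aqu2.1.28067_001 at an edgeR adjusted p of 0.0513 and a log2 fold change of 0.24, and Aqu2.1.33906_001 at 0.0564 and 2.02. Where nothing says that larvae of a group came from separate mothers, p-values measure only the spread between these larvae.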

How the data were processed

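Transcripts of 144 single sponge animals were measured by CEL-Seq2. The deposited table holds whole-number counts for 47411 features, and per the labels' series text the reads were split by barcode with a public CEL-Seq pipeline and assigned to Aqu2.1 gene models. The aligner and the genome assembly were not given in the sources used here. The highest deposited count was 8192, so the levels of the most abundant transcripts and their fold changes may be compressed near that value.

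Counts were tested with edgeR 4.0.16 (trimmed-mean scaling, low-count filter by group, robust quasi-likelihood F test, 2-sided) in R 4.3.3. All 144 animals entered 1 fit with a mean for each of 17 groups and a term for library, which leaves 125 residual degrees of freedom. The filter kept 14950 features, of which 424 had identifiers outside the gene models, with 99.4% of all counts. The cue difference was taken within each age and averaged with equal weight. Each standard error was derived from the log2 fold change and its F statistic. The calculation was tested on simulated data. DESeq2 1.42.0, limma 3.58.1 (log2 CPM with a prior count of 2) and other fits served as alternatives, and leave-one-out fits kept the dispersions of the full fit. Totals were compared by exact permutation with Python 3.11.15, and plots used matplotlib 3.10.9.

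Named genes were all those past the threshold in the averaged comparison (at most 40) and at any single age, and full values went to the first 5 evenly detected in each direction by adjusted p and to 4 unevenly detected by size of change. Full values of Aqu2.1.08801_001 and of genes called within library K were added after their values were seen. Both this rule and the comparison were chosen with earlier results of these data known.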

Additional observations from a re-analysis of the deposited data

Results flagged for a closer look

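The difference between cues at 1.5 and 3 h differed between libraries K and T in 35 genes (edgeR adjusted p, an analysis added after the results were seen), of which 33 had the larger value in K. Its part in the averaged result is given above by the values in each library.

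Groups of 9 larvae were searched for single larvae far from the rest (Dixon's test at the 95% level), in total counts, settlement scores and the log2 CPM of 10 evenly detected genes, the 8 with full values and the 2 called at 5 h. Of 96 groups, 8 held such a larva, and chance alone flags about 1 in 20. Larva 10 of the Mesophyllum group induced at 5 h stood apart in its settlement score, 0.634, and in Aqu2.1.33566_001, at a log2 CPM of 10.98. In the same group larva 7 had no count of Aqu2.1.34424_001, a log2 CPM of -0.00215. Larva 5 of the Mesophyllum group induced at 8 h had no count of Aqu2.1.35939_001, at the same log2 CPM of -0.00215. Among seawater larvae, larva 2 of the 8 h group had the highest total, 4692279 counts, and a low log2 CPM of Aqu2.1.28688_001, 9.09. Larva 3 of the 1.5 h seawater group had a log2 CPM of 5.05 of Aqu2.1.40907_001, and larva 6 of the 5 h seawater group had one of 5.53 of Aqu2.1.00064_001.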

How the results depend on the processing

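The count of 32 genes in the averaged comparison depended on the processing. It moved by over 1.5 times to 19 with no low-count filter, 123 with no library term (61 higher and 62 lower), 91 with the swimming larvae alone, 57 without library T, 0 without library K (limma-trend without K, 1), 3 within library T, 67 within library K at 1.5 and 3 h, 12 without induction at 1.5 h, 12 without induction at 3 h, 11 with limma-trend and 68 with DESeq2. Leaving out 1 of the 72 larvae at a time gave 11 to 44 genes, the lowest without larva 6 of the Mesophyllum 3 h group, which is in library K, followed by 16 without larva 5 of the Mesophyllum 8 h group, 18 without larva 6 of the seawater 8 h group, 20 without larva 5 of the Mesophyllum 5 h group and 21 without larva 10 of the Mesophyllum 1.5 h group, and the highest without the single seawater larva of library C. The cause of these shifts was not tested.

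At single ages the counts of 1, 0, 3 and 0 became 17, 13, 11 and 17 with DESeq2. With no low-count filter they were 4 at 1.5 h and 7 at 8 h, with no library term 3 at 3 h, 13 at 5 h and 5 at 8 h, and with DESeq2 size factors 1 at 8 h. With the 72 compared larvae alone they were 2 at 1.5 h, 0 at 5 h and 7 at 8 h, and without library C 2 at 3 h and 7 at 8 h. The age interaction gave 2 genes with DESeq2 size factors, 10 with no library term and 1 with DESeq2, and late minus early gave 10 and 7 in the latter settings. Without larva 10 the 5 h count was 0, and without larva 4 the 1.5 h count was 0.

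Larvae that shared a replicate number within an age did not deviate together (median correlation -0.0177 over 30 pairs, 8 of them above 0.1, against -0.0114 for other pairs). Among the 72 compared larvae alone the averaged comparison gave 29 genes, 18 of them among the 32. The replicate block in the same larvae gave 25 genes, 11 of them among the 32, and 4, 0 and 5 genes at 1.5, 5 and 8 h.

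In separate fits, directions of the 32 genes turned in Aqu2.1.25609_001 (-0.17) and Aqu2.1.43874_001 (-0.42) within library K and in Aqu2.1.16774_001 within library T (-0.030) and with limma-trend without library K (-0.059). In the fit with a mean per group and library, library T also turned Aqu2.1.35671_001 (-0.07) and Aqu2.1.23377_001 (-0.15) at 1.5 and 3 h and Aqu2.1.16774_001 (-0.13) at 5 and 8 h. There Aqu2.1.07737_001 (-0.62 at 1.5 and 3 h) and Aqu2.1.08349_001 (-0.35 at 5 and 8 h) had standard errors of 2070 and 2532, so that no direction can be read. The difference of mean totals at 3 h turned from -50173 to 34791 counts with scaled totals (adjusted exact permutation p = 0.825 and 0.897).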
